A study of Mus musculus with 30 samples.

Results

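Haemoglobin and calprotectin transcripts were followed across the 14 aortae and 16 kidneys of the study. The set held 6 of the 41128 genes in each count file: the adult α-globin genes Hba-a1 and Hba-a2, the adult β-globin genes Hbb-bs and Hbb-bt, and S100a8 and S100a9. They were selected by name, from how their counts varied between aorta libraries against the fat transcripts of the same libraries. Their aorta values were thus the basis of the choice and are given as a description, without a test, as are the aorta values of the adipocyte genes, whereas kidney values and the other genes were tested.

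The mice were WT or KO, fed SFD (standard fat diet) or HFD (high fat diet), and all male. KO mice carried loxP sites in both Egfr alleles (Egfr flox/flox) and an inducible Cre recombinase driven by the Smmhc (Myh11) promoter, which after tamoxifen directs the deletion to smooth muscle cells. WT mice had this Cre but no loxP sites, and both genotypes had received tamoxifen (1 mg per day for 5 days). The transgene lies on the Y chromosome, so that only males could be used. The diets started 7 days after the tamoxifen at 6 weeks of age and lasted 18 weeks. Each library came from 1 mouse: 3 WT-SFD, 4 WT-HFD, 3 KO-SFD and 4 KO-HFD aortae, and 4 kidneys per group. Libraries are named by group and mouse number. Aortae had been freed from adjacent fat and connective tissue, and whether the vessels were flushed with buffer is not given in the sources used here.

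Haemoglobin is the oxygen carrier of red cells and is made of 2 α- and 2 β-chains. Mature mouse red cells have no nucleus but retain globin mRNA for a time, mainly as reticulocytes, so that globin reads in a solid tissue usually come from blood in its vessels. The globin genes are switched on in erythroblasts by GATA1, which binds GATA motifs, and by KLF1, which binds CACCC motifs. S100a8 and S100a9 together form calprotectin, a calcium- and zinc-binding protein that fills the cytoplasm of neutrophils and is released as a danger signal.

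Hba-a1 (ENSMUSG00000069919; chr11:32283511-32284465, plus strand, GRCm38) and Hba-a2 (ENSMUSG00000069917; chr11:32296489-32297298, plus strand) were neighbours on chromosome 11. Hbb-bs (ENSMUSG00000052305; chr7:103826534-103828096, minus strand) and Hbb-bt (ENSMUSG00000073940; chr7:103812524-103813996, minus strand) lay side by side on chromosome 7. S100a8 (ENSMUSG00000056054; chr3:90668978-90670035, plus strand) and S100a9 (ENSMUSG00000056071; chr3:90692632-90695721, minus strand) were neighbours on chromosome 3. Each gene had 3 exons in GENCODE vM21. The promoters of 3 haemoglobin genes and 1 calprotectin gene are shown as examples of both kinds of member and of how far the β-globin copies differ. The sequences are the 250 bases before the RefSeq start of the gene (GRCm38.p6), 5′ to 3′ on the strand of the gene, with motif matches in capitals. GENCODE places the start of some of these genes inside the windows.
Hba-a1, chr11:32283422-32283671, plus strand: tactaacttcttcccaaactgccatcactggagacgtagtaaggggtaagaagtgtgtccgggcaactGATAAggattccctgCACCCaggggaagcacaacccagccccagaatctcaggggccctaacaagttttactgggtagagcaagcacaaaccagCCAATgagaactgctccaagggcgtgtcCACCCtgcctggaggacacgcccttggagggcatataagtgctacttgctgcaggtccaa
Hbb-bs, chr7:103827929-103828178, minus strand: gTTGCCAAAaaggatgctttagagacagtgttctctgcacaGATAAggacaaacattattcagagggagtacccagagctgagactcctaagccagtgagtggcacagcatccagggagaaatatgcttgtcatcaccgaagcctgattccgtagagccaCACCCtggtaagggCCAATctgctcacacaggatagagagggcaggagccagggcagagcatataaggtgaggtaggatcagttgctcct
Hbb-bt, chr7:103813924-103814173, minus strand: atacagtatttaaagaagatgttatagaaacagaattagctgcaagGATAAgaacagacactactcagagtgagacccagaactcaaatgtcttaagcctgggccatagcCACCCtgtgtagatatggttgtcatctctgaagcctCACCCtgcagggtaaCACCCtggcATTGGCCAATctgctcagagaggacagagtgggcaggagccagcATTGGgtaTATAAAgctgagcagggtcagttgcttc
S100a8, chr3:90668821-90669070, plus strand: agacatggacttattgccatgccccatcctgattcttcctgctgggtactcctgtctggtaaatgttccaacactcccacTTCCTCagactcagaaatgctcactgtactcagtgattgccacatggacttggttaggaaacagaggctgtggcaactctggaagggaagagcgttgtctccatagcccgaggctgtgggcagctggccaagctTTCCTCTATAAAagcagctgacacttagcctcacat
The capitals mark GATAA (the core of a GATA motif), CACCC (the core of a KLF motif), CCAAT (the box bound by NF-Y), TATAAA (a consensus of the TATA box), TTNNGCAA (the core of a C/EBP motif) and GAGGAA (the core of a PU.1 motif), searched on both strands, and no matches overlapped. Positions count the first base of a match from the start of the gene, with -1 the base before it. GATAA lay at -182, -185, -209 and -204 in Hba-a1, Hba-a2, Hbb-bs and Hbb-bt, respectively, and 25.4% of the 32851 promoter windows of 300 bases in the RefSeq table held one. CACCC was found at -167 and -60 in Hba-a1, at -90 in Hbb-bs and at -140, -104 and -89 in Hbb-bt (57.5% of all windows). CCAAT lay at -88 in Hba-a1, at -76 in Hbb-bs and, on either strand, at -80, -75 and -36 in Hbb-bt (37.4% of all windows). The S100a8 window held neither GATAA nor CACCC but GAGGAA on the reverse strand at -170 and -36 (28.3% of all windows) and TATAAA at -30 (13.6%). The S100a9 window, which is not shown, held GATAA at -29 and CACCC at -91 and no GAGGAA, so that GATAA and CACCC did not separate the haemoglobin from the calprotectin genes. CCAAT was found in all 4 haemoglobin windows and in neither calprotectin window. TTNNGCAA occurred once in Hbb-bs and once in S100a9 (10.8% of all windows). These matches describe the letters of the windows only.

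The copies of each pair shared long stretches of transcript, and those of the α-globin pair nearly the whole promoter window. The promoter windows of Hba-a1 and Hba-a2 were identical at 98.0% of positions and shared a run of 297 bases, whereas those of Hbb-bs and Hbb-bt were identical at 71.7%. The Hba-a1 and Hba-a2 transcripts shared an identical run of 415 bases, and 56.5% of the 100-base windows of Hba-a1, the read length, also occurred in Hba-a2. Hbb-bs and Hbb-bt shared a run of 430 bases, with 62.6% of the Hbb-bs windows in common. How reads with several equally good places were counted is not given in the sources used here, so the level of a single copy is uncertain and sums over the 4 haemoglobin genes are used below where possible.

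The labelled tissues bore their markers. Acta2, smooth muscle actin, ran from 4235 to 8745 FPM (fragments counted on a gene, relative to the library size after TMM scaling) in the 14 aortae, and Umod, the uromodulin of the thick ascending limb, was at 0 in all 14. In the kidneys Slc34a1, the phosphate transporter of the proximal tubule, ran from 5895 to 10800 FPM. Egfr, the targeted gene, was present at 46.8 ± 7.41 FPM (SD, n = 3) in WT-SFD and 30.1 ± 4.73 FPM (n = 3) in KO-SFD aortae, and at 57.6 ± 5.71 FPM (n = 4) in WT-HFD and 35.3 ± 6.09 FPM (n = 4) in KO-HFD aortae. KO aortae lay below WT aortae on each diet without overlap. In the kidney, where smooth muscle is a small part of the tissue, Egfr overlapped between KO and WT on each diet. Group means there lay between 43.1 and 53.6 FPM, and KO-HFD kidneys (40.45 to 45.51 FPM) lay below KO-SFD kidneys (46.72 to 60.79 FPM). Aorta libraries held 6403699 to 13052870 counts (median 8998366) and kidney libraries 16354880 to 28331314 (median 19544128).

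Haemoglobin transcripts differed widely between single aortae. The sum of the 4 genes was 27.3, 13.1 and 389 FPM in WT-SFD aortae (WT-SFD-1309, WT-SFD-1310 and WT-SFD-1445). In WT-HFD aortae the sum was 444, 166, 308 and 376 FPM (WT-HFD-1442, WT-HFD-1443, WT-HFD-1447 and WT-HFD-1448). On SFD 1 WT aorta thus lay within the WT-HFD range and 2 far below it. Among KO-SFD aortae it was 20.6 FPM in KO-SFD-1319, 348 FPM in KO-SFD-1452 and 332 FPM in KO-SFD-1507. KO-HFD aortae had 223, 312, 804 and 533 FPM (KO-HFD-1454, KO-HFD-1503, KO-HFD-1504 and KO-HFD-1505). The aortae WT-SFD-1309, WT-SFD-1310 and KO-SFD-1319 were far below the other 11, of which the lowest was WT-HFD-1443, and all 3 had been fed SFD. The highest value, in KO-HFD-1504, was 61.2-fold the lowest, in WT-SFD-1310. Counts behind the sum ran from 128 to 10049, so that counting error was small beside this spread.

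**Figure D1:**
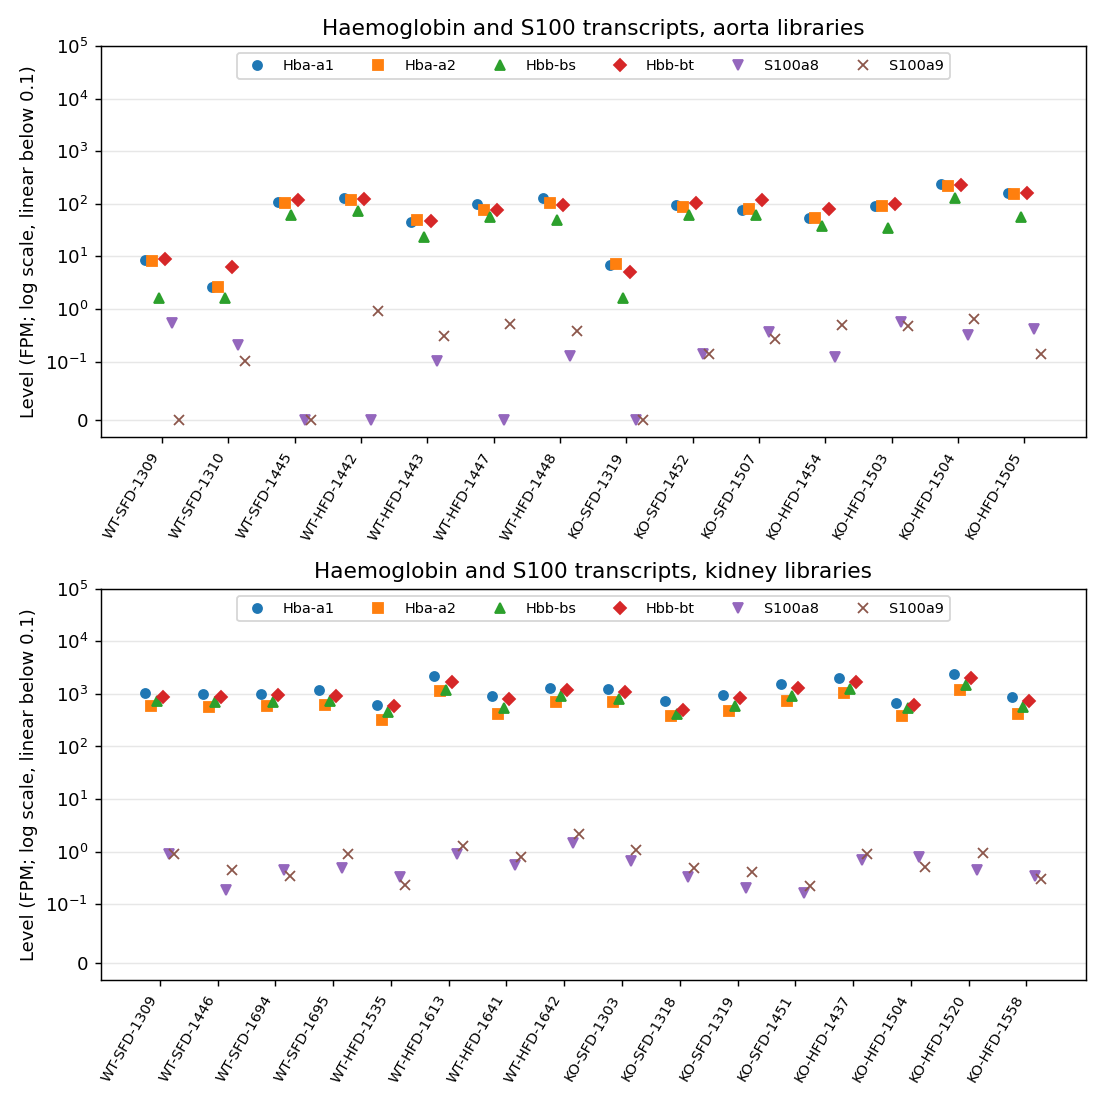
Level of each of the 6 genes in every aorta (top) and kidney (bottom) library, in FPM on an axis that is logarithmic above 0.1 and linear below it. The haemoglobin genes of the aortae WT-SFD-1309, WT-SFD-1310 and KO-SFD-1319 lie well below those of the other 11 aortae, and S100a8 and S100a9 lie far below the haemoglobin genes of the kidneys (at most 1.43 and 2.15 FPM there) and near the floor in the aortae.

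Each of the 4 haemoglobin genes singly was lowest in the same 3 aortae, in varying order among them and among the other 11. Hba-a1 was measured at 8.60, 2.67 and 107 FPM in WT-SFD, 128, 45.8, 98.3 and 127 FPM in WT-HFD, 6.83, 96.3 and 75.3 FPM in KO-SFD and 53.4, 90.7, 234 and 163 FPM in KO-HFD aortae, in the order of mice above. Hbb-bs was measured at 1.64, 1.64 and 61.8 FPM in WT-SFD, 73.7, 23.3, 57.0 and 49.4 FPM in WT-HFD, 1.61, 61.7 and 60.9 FPM in KO-SFD and 37.4, 35.2, 128 and 55.7 FPM in KO-HFD aortae. Either gene separated the same 3 SFD aortae from the rest, and every group overlapped with every other. Hba-a2 ran from 2.67 to 217 FPM (median 82.7) and Hbb-bt from 5.09 to 225 FPM (median 96.9). The highest aorta exceeded the lowest by 87.7-fold for Hba-a1, 81.5-fold for Hba-a2, 79.4-fold for Hbb-bs and 44.2-fold for Hbb-bt. Per kb of merged exons (all exons of a gene in GENCODE vM21, overlaps counted once), the mean level over the aortae was 123 FPM for Hba-a2, 109 for Hba-a1, 128 for Hbb-bt and 60.3 for Hbb-bs.

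By group, the haemoglobin sum was 143 ± 213 FPM (SD, n = 3) in WT-SFD, 324 ± 119 FPM (n = 4) in WT-HFD, 234 ± 185 FPM (n = 3) in KO-SFD and 468 ± 259 FPM (n = 4) in KO-HFD aortae. In WT-SFD the SD exceeded the mean, since 1 of 3 aortae carried nearly all of it. The fitted log2 difference of HFD against SFD was 1.35 ± 0.96 (SE) for Hba-a1, 1.23 ± 0.93 for Hba-a2, 1.26 ± 1.05 for Hbb-bs and 0.96 ± 0.91 for Hbb-bt in WT. In KO it was 1.18 ± 0.94, 1.16 ± 0.92, 0.63 ± 1.00 and 0.90 ± 0.90 in the same order. The standard errors came close to the differences or exceeded them. KO against WT gave 0.61 to 0.97 on SFD and 0.34 to 0.72 on HFD over the 4 genes, with standard errors of 0.82 to 1.10. All 20 differences, including those of the interaction (-0.63 to -0.07), are described without a test.

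The differences rested on single libraries. Without WT-SFD-1445 the difference of HFD against SFD in WT became 4.20 for Hba-a1, 4.08 for Hba-a2, 4.95 for Hbb-bs and 3.51 for Hbb-bt. Leaving out the aortae WT-SFD-1309, WT-SFD-1310 and KO-SFD-1319, which leaves 1 WT-SFD library that is then assumed to vary like the other groups, turned the sign in WT: Hba-a1 -0.10, Hba-a2 -0.22, Hbb-bs -0.27 and Hbb-bt -0.45. KO against WT on SFD also turned, to between -0.32 and -0.01, and the interaction became positive for all 4 genes (Hba-a1 0.77, Hba-a2 0.87, Hbb-bs 0.35 and Hbb-bt 0.81), whereas HFD against SFD in KO (0.08 to 0.67) and KO against WT on HFD (0.34 to 0.72) stayed positive. With the mean of the adipocyte genes as a covariate, HFD against SFD in KO turned to -0.11 for Hba-a1, -0.13 for Hba-a2, -0.74 for Hbb-bs and -0.32 for Hbb-bt, and KO against WT on HFD to -0.09 for Hbb-bs. In that fit HFD against SFD in WT stayed positive (0.25 to 0.80 over the 4 genes), as did KO against WT on SFD (0.88 to 1.32). The interaction there ran from -1.41 to -0.56. Diet, adipocyte transcripts and the 3 low libraries cannot be told apart in these aortae.

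Other transcripts moved with these libraries. The summed level of 22 adipocyte genes was 9727, 7676 and 6076 FPM in WT-SFD-1309, WT-SFD-1310 and KO-SFD-1319, 2163 FPM in KO-SFD-1452 and 649.8 to 1008 FPM in the other 10 aortae. Adipoq, the adipocyte hormone adiponectin, was at 195, 148 and 111 FPM in the first 3, 47.8 FPM in KO-SFD-1452 and 1.37 to 14.8 FPM elsewhere, and Ucp1, the uncoupling protein of brown fat, reached 580 FPM in WT-SFD-1309. The aortae with the least haemoglobin were thus those with the most fat transcript, the relation for which the 6 genes were chosen. Smooth muscle genes summed to 10820, 13360 and 11590 FPM in these 3 aortae and to 15980 to 19340 FPM in the other 11. Fibroblast genes were also lowest in them (2559 to 3000 against 3700 to 5262 FPM), so that haemoglobin was 1 of several groups that were low there. In bulk tissue fewer cells of a type and less RNA per cell cannot be told apart. Total counts of the 3 libraries (7793529 to 10466922) lay within the range of the others, as did their share of small and structural RNAs (28.4% to 31.2%, against 18.4% to 43.1% over all aortae). The 3 mice had the lowest numbers among the aortae, and the labels give no date. The part of adipose tissue, of mouse order and of residual blood in the haemoglobin differences was not tested.

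**Figure D2:**
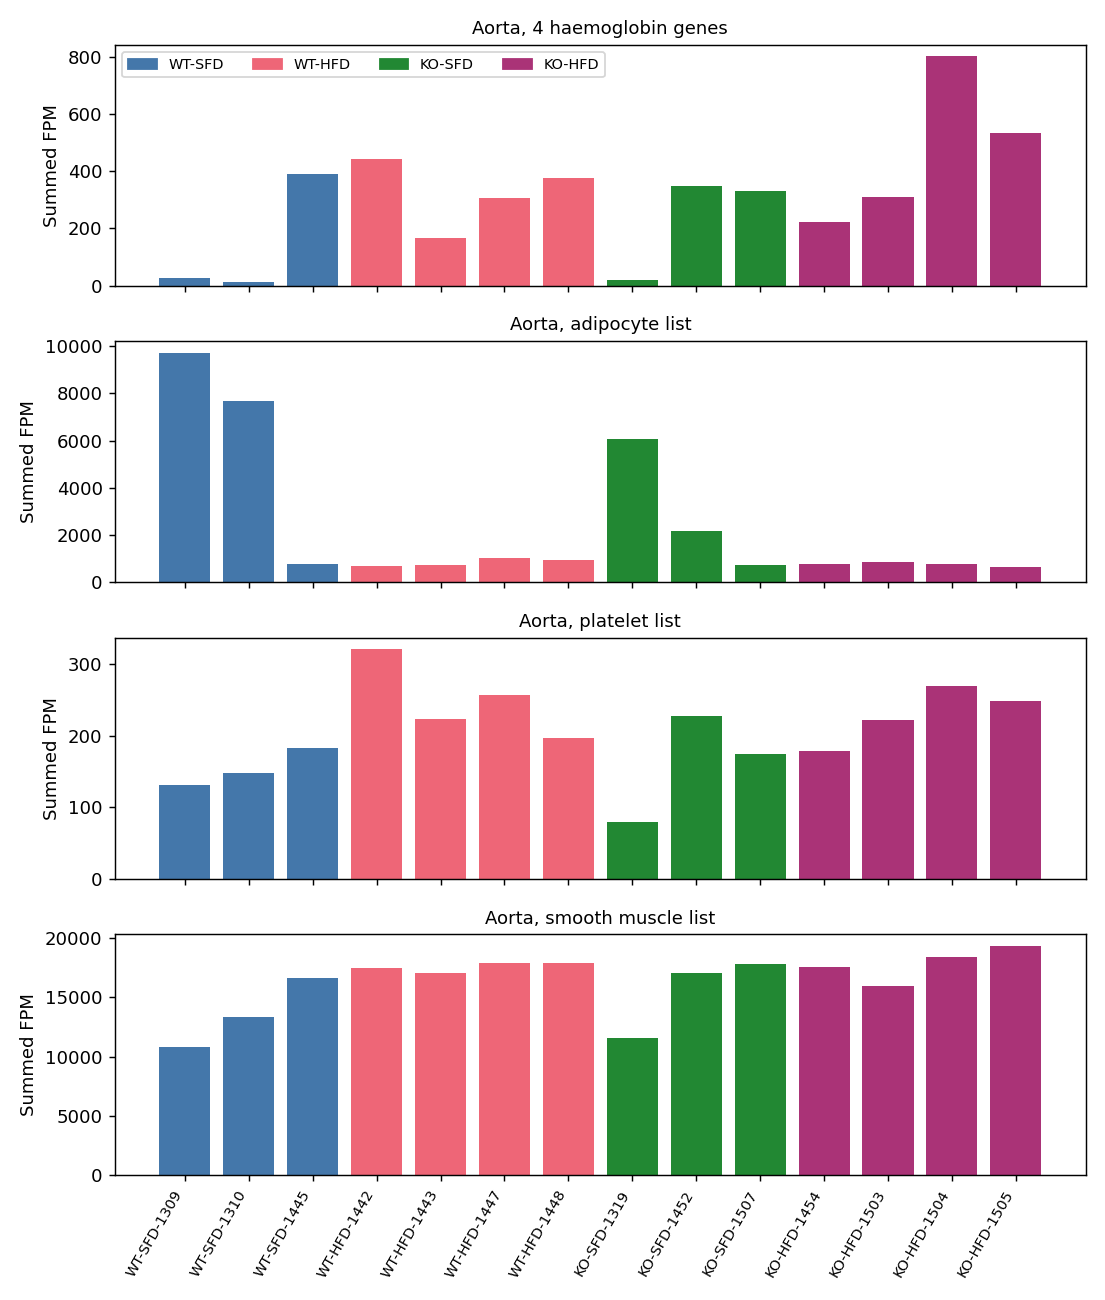
Summed level in each of the 14 aortae of the 4 haemoglobin genes and of the adipocyte, platelet and smooth muscle genes, in FPM, with 1 bar per mouse coloured by group and axes that start at 0. WT-SFD-1309, WT-SFD-1310 and KO-SFD-1319 show the lowest haemoglobin (13.1 to 27.3 FPM), the highest adipocyte sums and the lowest platelet and smooth muscle sums.

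Red cell genes outside the set were followed in the same aortae. Of 27 listed genes, 24 had a count in the aorta, their summed level was 232, 229 and 249 FPM in WT-SFD-1309, WT-SFD-1310 and KO-SFD-1319 and 364 to 737 FPM in the other 11, and KO-HFD-1504 was highest for both this sum and haemoglobin. By FPM the most abundant were Epb41, a protein of the membrane skeleton (mean 156 FPM), Slc25a37, the mitochondrial iron importer mitoferrin (71.1 FPM), Fech, which inserts iron into haem (63.0 FPM), Bpgm, which makes 2,3-bisphosphoglycerate (43.5 FPM), and Mkrn1, a ubiquitin ligase (38.7 FPM). Mkrn1 was at 22.9, 19.0 and 47.4 FPM in WT-SFD, 49.3, 29.5, 35.2 and 41.4 FPM in WT-HFD, 15.4, 44.0 and 42.6 FPM in KO-SFD and 34.5, 43.3, 61.8 and 56.0 FPM in KO-HFD aortae. The same 3 aortae were again lowest, by a much smaller factor than for haemoglobin. This held for 10 of the 17 genes that passed the filter on low counts (among them Epb41, Slc25a37, Bpgm, Mkrn1, Ube2l6, Slc4a1 and Trim10) but not for Fech, Sptb, Fbxo7, Isg20, Trim58, Epb42 and Tspan33. Alas2, the erythroid enzyme of haem synthesis, lies on a stretch of the genome without counts in either file and was not analysed here.

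A narrower erythroid marker was scarce. Slc4a1, the anion exchanger band 3 of the red cell membrane, was at 1.23, 0.62 and 9.10 FPM in WT-SFD, 9.38, 4.72, 5.84 and 9.72 FPM in WT-HFD, 1.61, 14.9 and 10.8 FPM in KO-SFD and 12.8, 20.8, 29.4 and 32.4 FPM in KO-HFD aortae. Every KO-HFD aorta lay above every WT-HFD aorta. The embryonic α-like globin Hba-x stayed between 0 and 2.19 FPM. Of the other globins Cygb, cytoglobin of fibroblasts and smooth muscle, was the main one (mean 135 FPM, 96.0 to 169 FPM), and myoglobin (Mb) reached 26.9 FPM in WT-SFD-1310 while being at 0 in 5 aortae.

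The 17 red cell and 8 neutrophil genes that passed the filter were tested with the 14796 genes of the aorta by quasi-likelihood in edgeR, with p values adjusted by Benjamini-Hochberg. HFD against SFD called none of the 25 in WT or KO, where 0% of all genes tested were called. At an unadjusted p under 0.05 there were 4 in WT and 1 in KO (Trim10), against 16.7% and 7.47% of all genes. The 4 in WT were all among the 8 tested neutrophil genes, 2 higher on HFD (among them Csf3r) and 2 lower (Lrg1 and Hdc). DESeq2 called 0 of the 25 in WT or KO, where it called 666 and 8 of all genes. KO against WT also called 0 of 25 on SFD and 0 on HFD, where 0.0811% of all genes were called in each comparison (DESeq2 0). At an unadjusted p under 0.05 there were 2 on SFD (among them Itgam) and 5 on HFD (Csf3r and 4 red cell genes, among them those given below), against 6.14% and 5.04% of all genes. The interaction called 0, as did DESeq2, beside 0% of all genes and 1 listed gene at an unadjusted p under 0.05 (4.1% of all genes). Genes with an unadjusted p only were named after their values were seen. In the red cell list 14 of 17 genes had a positive log2 difference of HFD against SFD in WT (median 0.72, against -0.01 for all genes tested) and 16 of 17 in KO (median 0.57, against -0.0016). KO against WT gave medians of 0.53 on SFD and 0.33 on HFD (-0.03 and -0.01 for all genes), with 14 of 17 positive in each. These comparisons share groups, and the 3 low aortae were all in SFD groups. Without WT-SFD-1445, the only WT-SFD aorta with haemoglobin in the range of the HFD aortae, 8 of 28 were called in HFD against SFD in WT, among them Bpgm, Epb41, Slc25a37, Slc4a1 and Ube2l6, which were positive (1.11 to 3.04) and Hdc and Lrg1, which were negative (-2.56 and -2.88), beside 1801 genes called in all.

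Slc4a1 had the clearest difference of the red cell genes between genotypes on HFD, with a log2 difference of 1.69 ± 0.61 (SE) in KO against WT, but its edgeR adjusted p was 0.869. It passed in 2 of 21 other settings: in a fit of the WT-HFD and KO-HFD aortae only (edgeR adjusted p = 0.0247) and without WT-SFD-1309, WT-SFD-1310 and KO-SFD-1319 (edgeR adjusted p = 0.0257). Over all 21 settings the adjusted p ran from 0.0247 to 1 and the difference from 1.51 to 1.90. Epb42, the membrane protein 4.2 (2.21), and Trim10 (2.14) were among the other red cell genes with an unadjusted p under 0.05 in this comparison. All 3 were higher in KO on average, and none was called over all genes.

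Calprotectin transcripts were close to the limit of detection in the aorta, and the name neutrophil transcripts was not borne out there by other genes of that cell. S100a8 had 0 to 6 counts and S100a9 0 to 9 counts per aorta. S100a8 was at 0 in 4 aortae and S100a9 in 3, where 3 counts, the limit that a count of 0 allows, correspond to 0.240 to 0.433 FPM over the libraries (counting error only). The summed level of both was 0.55, 0.31 and 0 FPM in WT-SFD, 0.92, 0.40, 0.52 and 0.51 FPM in WT-HFD, 0, 0.28 and 0.63 FPM in KO-SFD and 0.61, 1.03, 0.96 and 0.55 FPM in KO-HFD aortae. The groups compared overlapped in this sum. S100a9 alone had 0, 1 and 0 counts in WT-SFD and 9, 3, 5 and 3 in WT-HFD, whereas S100a8 had 4, 2 and 0 in WT-SFD and 0, 1, 0 and 1 in WT-HFD. The 3 aortae with the least haemoglobin did not stand apart in the sum, and neither gene passed the filter on low counts. Per kb of merged exons the mean level was 0.298 FPM for S100a8 and 0.599 FPM for S100a9, against 60.3 to 128 FPM for the haemoglobin genes.

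Defining genes of neutrophils were at or near 0 in the same libraries. Ly6g, the surface antigen used to gate mouse neutrophils, was at 0 in 13 of 14 aortae, Mpo and Elane, proteins of the primary granules, in 11, Cd177 in 9, and Retnlg and Fpr1 in 8. Cxcr2, the receptor for neutrophil chemokines, ran from 0 to 0.938 FPM, and Csf3r, the G-CSF receptor, from 0.821 to 5.42 FPM. The summed level of the 40 listed genes (33 with a count) was 103 to 144 FPM and was mostly Anxa1, annexin A1 (71.1 FPM, range 54.4 to 85.0), and Gsr, glutathione reductase (24.8 FPM), which many cells express. Itgam, an integrin of myeloid cells (8.09 FPM), Lrg1, a secreted glycoprotein (5.87 FPM), and Mmp9, a gelatinase (4.18 FPM), followed. Ngp, Camp, Ltf and Mmp8 lie on stretches without counts and were not analysed here. Of the 8 tested genes 5 had a positive difference of HFD against SFD in WT (median 0.05) and 4 in KO (median -0.39).

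The surroundings of calprotectin were measured too. Among 17 genes of calprotectin receptors and neutrophil recruitment, 10 were tested and none was called in the aorta by edgeR in any of the 5 comparisons (0 to 2 at an unadjusted p under 0.05). In HFD against SFD in WT, where DESeq2 called 666 genes in all, it called Cd36, a fatty acid receptor that also binds calprotectin complexes. Cd36 was at 533, 409 and 365 FPM in WT-SFD-1309, WT-SFD-1310 and KO-SFD-1319, the aortae rich in fat transcripts, at 110.0 FPM in KO-SFD-1452 and at 17.5 to 39.0 FPM in the other 10. Tlr4, the toll-like receptor for calprotectin, had a mean of 23.7 FPM (17.7 to 29.8 FPM) and was the gene of this list most like the haemoglobin sum, with a Pearson's r of log2(FPM + 1) of 0.843 over 14 aortae and 0.470 over the 11 without WT-SFD-1309, WT-SFD-1310 and KO-SFD-1319. Of the S100 family beside calprotectin, S100a6 (mean 52.0 FPM) and S100a11 (42.0 FPM) were the most abundant calcium-binding members by FPM, and edgeR called none of the 9 tested (0 to 3 at an unadjusted p under 0.05, DESeq2 called S100a1 in HFD against SFD in WT). Haem and iron handling genes such as Fth1, the ferritin heavy chain (656 FPM, 518 to 772 FPM), and Slc48a1, a haem transporter (94.0 FPM), were also measured, and 0 of 13 tested were called by edgeR (0 to 5 at an unadjusted p under 0.05, most in HFD against SFD in WT, with 1 higher and 4 lower against 16.7% of all genes, DESeq2 called Aco1 in HFD against SFD in WT).

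Platelet transcripts were lowest in the same 3 aortae. Their sum over 15 genes was 131, 148 and 79.8 FPM in WT-SFD-1309, WT-SFD-1310 and KO-SFD-1319 and 175 to 321 FPM in the other 11 aortae. It was mostly Itgb3, integrin β3 (mean 142 FPM), which smooth muscle and endothelium also express. Ppbp, a platelet chemokine precursor, ran from 0.268 to 26.1 FPM, and Pf4, platelet factor 4, from 2.81 to 15.7 FPM. For HFD against SFD, 12 of 13 tested platelet genes were positive in WT (median 0.79) and 13 of 13 in KO (median 0.72), and neither edgeR nor DESeq2 called any (3 and 1 at an unadjusted p under 0.05, against 16.7% and 7.47% of all genes). Lymphocyte genes stood apart in another way: their sum was 2039 FPM in KO-SFD-1319, with Ighm at 1279 and Igkc at 717 FPM, against 13.6 to 67.9 FPM in the other 13 aortae.

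In the kidney haemoglobin was abundant and never low. The sum of the 4 genes was 3247, 3138, 3223 and 3435 FPM in WT-SFD kidneys (WT-SFD-1309, WT-SFD-1446, WT-SFD-1694 and WT-SFD-1695). In WT-HFD kidneys it was 1964, 6210, 2663 and 4091 FPM (WT-HFD-1535, WT-HFD-1613, WT-HFD-1641 and WT-HFD-1642). KO-SFD kidneys had 3822, 2021, 2846 and 4492 FPM (KO-SFD-1303, KO-SFD-1318, KO-SFD-1319 and KO-SFD-1451), and KO-HFD kidneys 5987, 2206, 7032 and 2564 FPM (KO-HFD-1437, KO-HFD-1504, KO-HFD-1520 and KO-HFD-1558). The 4 WT-SFD kidneys were nearly alike, and the other groups spread to both sides of them. The group means were 3261 ± 125 FPM (SD, n = 4) in WT-SFD, 3732 ± 1874 FPM in WT-HFD, 3295 ± 1086 FPM in KO-SFD and 4447 ± 2424 FPM in KO-HFD (n = 4 each), with coefficients of variation of 3.85%, 50.2%, 32.9% and 54.5%. The highest kidney was 3.58-fold the lowest, against 61.2-fold in the aorta. Per kb of merged exons the mean level over the kidneys was 1514 FPM for Hba-a1, 956 for Hba-a2, 1017 for Hbb-bs and 1473 for Hbb-bt. Small and structural RNAs took 18.4% to 43.1% of the counts in the aortae but 0.0425% to 0.126% in the kidneys, and the part of this in the levels of the 2 tissues was not tested. Since the tissues were sequenced at different places, tissue and sequencing place cannot be told apart.

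**Figure D3:**
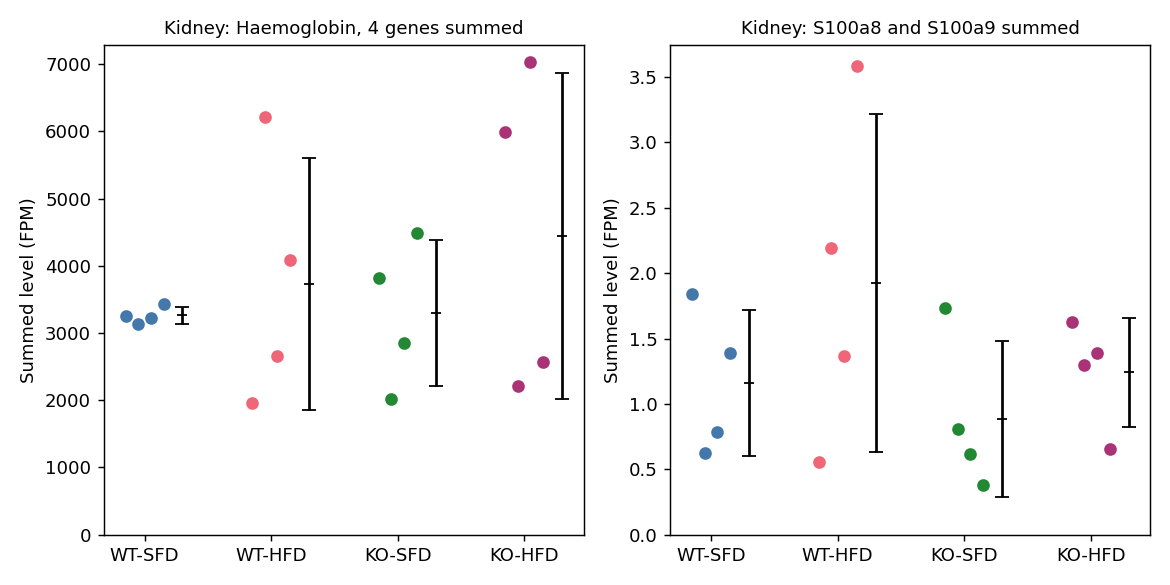
Summed level of the 4 haemoglobin genes (left) and of S100a8 and S100a9 (right) in the 16 kidneys, in FPM, with 1 point per mouse and the mean ± SD of each group (n = 4). The WT-SFD kidneys lie close together at 3138 to 3435 FPM of haemoglobin, and all groups overlap.

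The kidney values were not used to choose the genes, so they were tested with all 15034 genes of the kidney. HFD against SFD in WT gave 0.24 ± 0.39 (log2, SE) for Hba-a1, 0.13 ± 0.39 for Hba-a2, 0.12 ± 0.34 for Hbb-bs and 0.24 ± 0.38 for Hbb-bt. The calprotectin genes gave 0.66 ± 0.51 for S100a8 and 0.78 ± 0.57 for S100a9. None of the 6 was called by edgeR (adjusted p 0.875 to 0.995), DESeq2 called 0, and 0 had an unadjusted p under 0.05, while 0.911% of all genes were called. In KO, HFD against SFD gave 0.40 to 0.47 for the 4 haemoglobin genes, 0.72 for S100a8 and 0.27 for S100a9, again with 0 of 6 called by either tool or at an unadjusted p under 0.05 (edgeR adjusted p 0.532 to 0.862, 2.3% of all genes called). All 6 differences were positive in both genotypes and smaller than the spread between the mice. The smallest unadjusted p of all kidney tests was 0.183, for Hbb-bs in KO.

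KO against WT kidneys on SFD differed by -0.05 to 0.06 for the haemoglobin genes, by -0.56 for S100a8 and by -0.23 for S100a9. On HFD the haemoglobin genes differed by 0.23 to 0.30, S100a8 by -0.50 and S100a9 by -0.74. edgeR called 0 of 6 in each (0.0133% and 0.00665% of all genes were called), DESeq2 called 0, and 0 had an unadjusted p under 0.05. The interaction of diet and genotype ran from 0.17 to 0.35 for haemoglobin and was 0.07 for S100a8 and -0.51 for S100a9. It called 0 of 6 by either tool, with 0 at an unadjusted p under 0.05 and 0% of all genes called. The sign of the haemoglobin difference between the diets in WT rested on WT-HFD-1613, the WT kidney with the most haemoglobin, and without it was -0.18 for Hba-a1, -0.31 for Hba-a2, -0.16 for Hbb-bs and -0.06 for Hbb-bt.

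Calprotectin transcripts were low in the kidney as well. S100a8 had 3 to 30 counts and S100a9 4 to 45 counts per kidney, and their sum was 1.84, 0.63, 0.79 and 1.39 FPM in WT-SFD, 0.56, 2.19, 1.36 and 3.58 FPM in WT-HFD, 1.74, 0.81, 0.61 and 0.38 FPM in KO-SFD and 1.63, 1.30, 1.39 and 0.65 FPM in KO-HFD, in the order of mice above. WT-HFD-1642 was highest, and all groups overlapped. The spread between kidneys was 8.75-fold for S100a8 and 9.84-fold for S100a9, wider than for any haemoglobin gene there (3.48- to 4.07-fold). Csf3r ran from 0.377 to 2.03 FPM and Cxcr2 from 0 to 0.284 FPM, Ly6g was at 0 in 13 of 16 kidneys and Mpo in 14. Of the neutrophil list 15 genes were tested, edgeR called 0 in every comparison, and DESeq2 called 1 in HFD against SFD in KO, with 0 to 3 genes at an unadjusted p under 0.05.

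Other red cell transcripts varied less than haemoglobin between the kidneys. The summed level of the red cell list was 765 to 883 FPM, a narrow range beside that of haemoglobin, and was led by Epb41 (mean 226 FPM) and Fech (136 FPM). Slc4a1 was lowest (40.9 FPM) in KO-HFD-1520, the kidney with the most haemoglobin, and highest (113 FPM) in WT-SFD-1446. Intercalated cells of the collecting duct express a form of this exchanger too. Of the 15 tested red cell genes 11 had a positive r with the haemoglobin sum over the 16 kidneys, the highest being Ube2l6 (0.608). The 15 tested red cell genes had medians between -0.06 and 0.09 in the 5 comparisons. None was called by edgeR or DESeq2, and 0 or 1 had an unadjusted p under 0.05 (1.65% to 15.8% of all genes). Of 7 tested platelet genes, Itga2b, integrin αIIb, fell with HFD in KO by 0.67 on the log2 scale (SE 0.144, edgeR adjusted p = 0.0193, DESeq2 adjusted p = 0.000985). It was the only one called by either tool in this comparison, where edgeR called 2.3% of all genes.

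**Figure D4:**
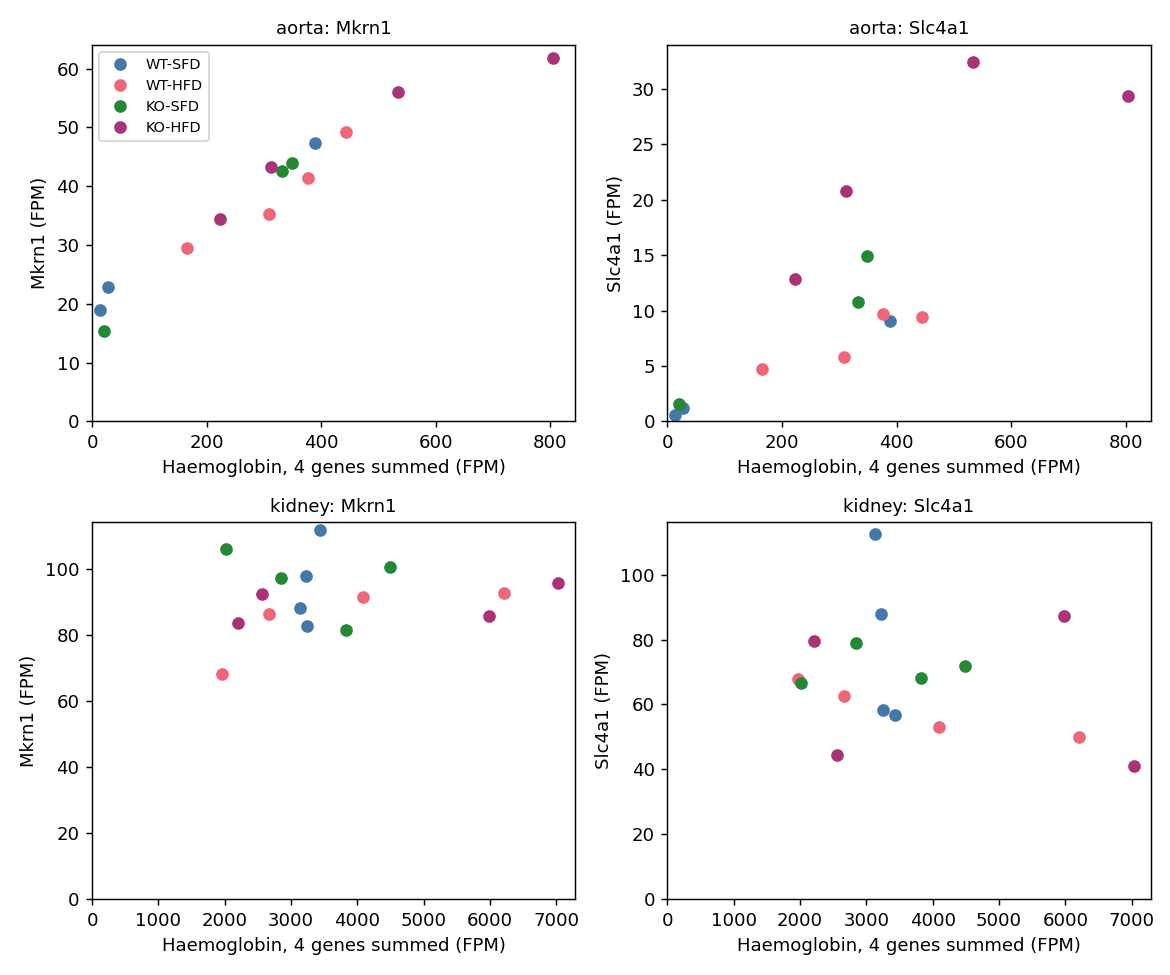
Mkrn1 (left) and Slc4a1 (right) against the haemoglobin sum, both in FPM, in the 14 aortae (top) and 16 kidneys (bottom), with 1 point per mouse coloured by group. In the aorta the 3 libraries with the least haemoglobin have the lowest Mkrn1 (15.4 to 22.9 FPM), whereas in the kidney Slc4a1 was lowest in the library with the most haemoglobin.

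The balance between the copies differed between the tissues. Hba-a1 and Hba-a2 stood at a ratio of 0.929 to 1.27 (median 1.05, n = 14) in the aorta and 1.70 to 2.16 (median 1.92, n = 16) in the kidney, with no overlap. Hbb-bs to Hbb-bt was 0.182 to 0.757 (median 0.502) in the aorta and 0.679 to 0.882 (median 0.758) in the kidney. The lowest value, in WT-SFD-1309, rested on few counts. α- to β-globin genes stood at 0.684 to 2.08 (median 1.30) in the aorta and 0.908 to 1.19 (median 1.01) in the kidney. Tissue, sequencing place and any difference in the assignment of shared reads cannot be told apart for these ratios.

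**Figure D5:**
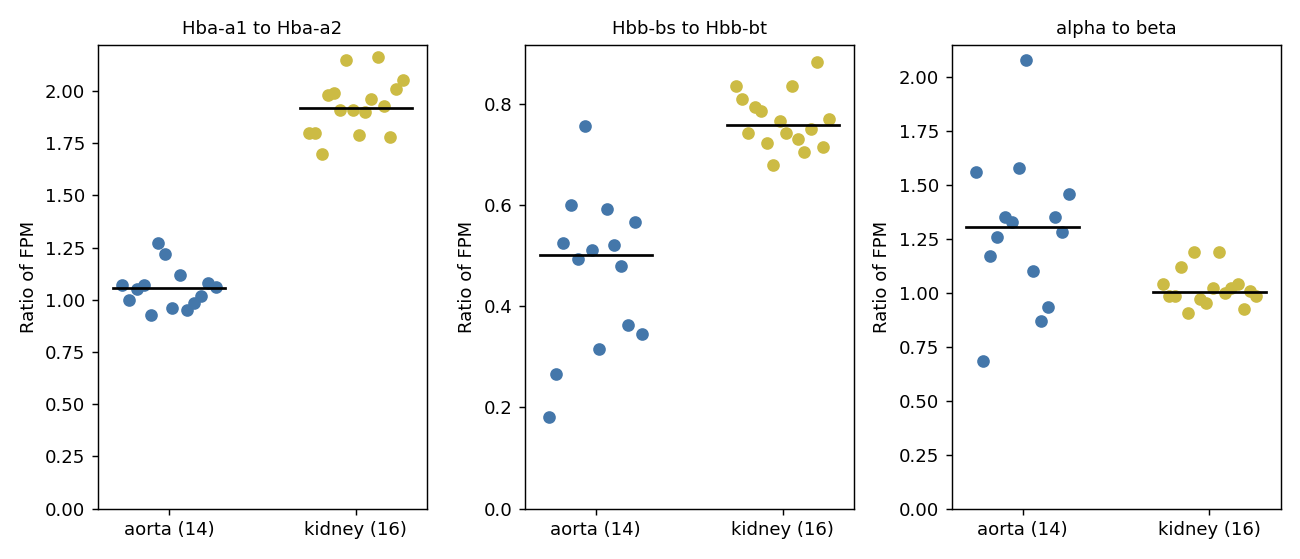
Ratio of Hba-a1 to Hba-a2, of Hbb-bs to Hbb-bt and of the α- to the β-globin genes (FPM over FPM, no unit) in each of the 14 aortae and 16 kidneys, with a line at the median. The Hba-a1 to Hba-a2 ratio lies at 0.929 to 1.27 in the aorta and 1.70 to 2.16 in the kidney, without overlap.

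The mouse numbers of WT-SFD-1309, KO-SFD-1319 and KO-HFD-1504 occur in both tissues. Counted from the lowest, WT-SFD-1309 was at rank 3 of 14 for aortic and rank 9 of 16 for renal haemoglobin (27.3 and 3247 FPM). KO-SFD-1319 was at rank 2 and rank 6 (20.6 and 2846 FPM). KO-HFD-1504 had the highest aortic value (804 FPM) and the third lowest renal value (2206 FPM). Whether the same number means the same animal is not given in the sources used here.

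Other genes were ranked by how closely they followed the haemoglobin sum across libraries (Pearson's r of log2(FPM + 1), a description over libraries of 1 tissue that were sequenced at the same place and differ in depth). The 14 aortae fell into the 3 low and the other 11, so that an r over all 14 rests largely on the gap between them. Over the 14 aortae the 10 highest included Serpinf1 (0.972), Ube2l6 (0.965), Slc25a37 (0.960), Col6a2 and Mkrn1 (0.958 each), Col6a1 (0.953), Tent5c and Bpgm (0.952 each) and Timp3 (0.951), of which Ube2l6, Slc25a37, Mkrn1 and Bpgm are on the red cell list. The matrix genes among them (Col6a1, Col6a2, Timp3) are products of mesenchymal cells. Without WT-SFD-1309, WT-SFD-1310 and KO-SFD-1319 the matrix genes left the list, and over the other 11 aortae Mkrn1 (0.960), Tent5c (0.935), Smim27 (0.915), Slc25a37 (0.912), Gm6768 (0.900), Gm6263 (0.886), Ncoa4 (0.875), Gm25291 (0.862) and Rad23b (0.859) were among the 10 highest.

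The lists differed in how far they followed haemoglobin within the other 11 aortae. The median r with haemoglobin of the red cell genes was 0.804 over 14 aortae and 0.691 over 11, against 0.006 and -0.011 for all genes tested. For platelet genes it was 0.850 and 0.586, and for neutrophil genes -0.086 and -0.005. For fibroblast genes it was 0.849 over 14 aortae, above that of the red cell genes, and 0.320 over 11, for smooth muscle genes 0.752 and 0.169, and for adipocyte genes -0.860 and -0.086. Over the 16 kidneys the median r was 0.214 for red cell, 0.075 for neutrophil and -0.059 for platelet genes (0.012 for all genes). It was 0.159 for fibroblast and -0.054 for smooth muscle genes. For adipocyte genes it was 0.271 (20 of 21 positive), above that of the red cell genes and opposite in sign to the aorta. The single gene highest was Hsd17b12 (0.772), an enzyme of fatty acid elongation, followed by Slc39a1 (0.727), Gm9008 (0.726), Bcas3 (0.724), Aacs (0.723), Pus7l (0.721), Prkaca (0.718), Ufsp2 (0.714), 6330562C20Rik (0.700) and Apol11b (0.699). None of these 10 is on the red cell list.

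The calprotectin sum had other companions. In the aorta Fcrls (0.922), Kif26b (0.882), Tesk1 (0.869), Gm15596, B4galt6, B3glct, Afmid, Kctd10, Pcdhb22 and Arl4c (0.783) followed it most closely. In the kidney Gm9320 (0.752), Cntrob (0.750) and Got2-ps1 (0.734) led, followed by Trim10, Apol11b, Abcg3, Cd300e, Copg1, Recql and Itgad, an integrin of leucocytes (0.698). With so few counts these rankings carry much counting error. Haemoglobin and calprotectin sums were related with an r of 0.458 over the 14 aortae, 0.262 over the 11 aortae without WT-SFD-1309, WT-SFD-1310 and KO-SFD-1319, and 0.447 over the 16 kidneys.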

How the data were processed

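Per the labels, total RNA of mouse aortae and kidneys was extracted with TRIzol, freed of ribosomal RNA and sequenced in paired-end reads of 100 bases. The authors had aortae sequenced by a university core facility and kidneys by a company, trimmed reads with cutadapt, aligned them to mm10 with TopHat and counted them per gene with featureCounts (submitters' processing notes). The deposited values are raw counts, not normalised. The authors name the BiomaRt release used to annotate the genes. The strand setting, the annotation used for counting and the counting of multi-mapping reads are not given in the sources used here. All columns were used, and no pair of libraries within a tissue held identical values. Of the 41128 genes, 40254 were found in GENCODE vM21. Genes of chromosomes 9, X, Y and MT and the end of chromosome 8 had no count in any library and were not analysed here.

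Counts were scaled by TMM factors (FPM) and tested per tissue with edgeR 4.0.16 in R 4.3.3 (filterByExpr, glmQLFit and glmQLFTest, 1 coefficient per group, Benjamini-Hochberg adjustment over the 14796 aorta or 15034 kidney genes, threshold 0.05). limma 3.58.1, DESeq2 1.42.0, Python 3.11.15, pandas 2.3.3, numpy 2.4.6, scipy 1.17.1, edlib 1.3.9 and matplotlib 3.10.9 were also used, and the fits were checked on simulated data. The comparisons were HFD against SFD per genotype, KO against WT per diet and their interaction. Each library is a separate mouse. Total counts of 6403699 to 28331314 set the precision, and intervals and floors of 3 counts cover counting error only.

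The members and gene lists (red cell, neutrophil, platelet, other globins, S100 family, calprotectin receptors and recruitment, haem and iron handling, lymphocyte, macrophage, adipocyte, smooth muscle, endothelial, fibroblast, skeletal muscle and kidney genes) were chosen with earlier results of these data known. Genes are named if they are members, among the 5 most abundant of a list, called, or among the 10 genes most alike. Alternatives were DESeq2, RLE factors, library totals, no filter on low counts, only protein-coding genes, only the groups compared, an adipocyte covariate (aorta) and each library left out. Leaving out the aortae WT-SFD-1309, WT-SFD-1310 and KO-SFD-1319 was added after the data were seen. Values of some listed genes are not reported here.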

Additional observations from a re-analysis of the deposited data

Results flagged for a closer look

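In 7 of 138 checked series of 4 mice, the gap between 1 mouse and its nearest neighbour took more of the range than Dixon's 95% critical value, a number that chance alone would give in about 1 in 20 series. None of the 7 was a sum of haemoglobin or calprotectin genes. In the aorta the sum of the other globins was lowest in KO-HFD-1454, at 132.4 FPM against 141.1 to 142.8 FPM in the other KO-HFD mice. Among the kidneys, lymphocyte genes reached 361.7 FPM in WT-SFD-1694 (others 59.62 to 100.1 FPM) and 1707 FPM in KO-HFD-1504 (others 111.7 to 273.7 FPM). The S100 family without calprotectin was highest in WT-SFD-1446, at 502.5 FPM against 370.5 to 377.4 FPM, and endothelial genes were highest in the same kidney, at 439.1 FPM against 374.7 to 385.6 FPM. Genes of calprotectin receptors and neutrophil recruitment were lowest in WT-HFD-1535, at 306.3 FPM against 364.1 to 371.9 FPM. Adipocyte genes were highest in KO-HFD-1520, the kidney with the most haemoglobin, at 8361 FPM against 4236 to 4746 FPM. The adipocyte markers Adipoq, Plin1, Cidec and Ucp1 reached at most 31.7, 41.2, 48.7 and 31.7 FPM in any kidney. Other genes of the list thus made up most of this sum.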

How the results depend on the processing

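No paired analysis was possible because the labels number the mice, not pairs, and replicate numbers were given in accession order. Directions are relative to the TMM scale: library totals in its place shift the median aorta gene by 0.112 and -0.107 (HFD against SFD in WT and KO), 0.293 and 0.0742 (KO against WT on SFD and HFD) and -0.217 (interaction), and the median kidney gene by -0.0196 to 0.015.

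The count of called red cell and neutrophil genes in the aorta kept its value of 0 in 31 of 34 other settings and in 69 of 70 fits with 1 library left out. It became 1 without a low count filter (Lrg1, HFD against SFD in WT, edgeR adjusted p = 0.048, range over its 21 settings 0.008 to 0.956, where 527 genes were called in all against 0), 1 in a fit of only the groups compared and 1 without the aortae WT-SFD-1309, WT-SFD-1310 and KO-SFD-1319 (Slc4a1, KO against WT on HFD). With libraries left out in turn it ran from 0 to 8 for HFD against SFD in WT, with 8 without WT-SFD-1445, and was 0 in the other 4 comparisons. The kidney count of called members was 0 in all 29 other settings and all 80 fits with 1 library left out.

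Of 280 aorta fold changes with 1 library left out, 12 moved by more than the spread between replicates, taken as the largest SD of log2(FPM + 1) within the groups compared, all without WT-SFD-1445. The HFD difference in WT ran from 0.79 to 4.20 for Hba-a1, 0.67 to 4.08 for Hba-a2, 0.69 to 4.95 for Hbb-bs and 0.44 to 3.51 for Hbb-bt. KO against WT on SFD ran from 0.04 to 3.45, 0.06 to 3.48, 0.40 to 4.66 and 0.26 to 3.33, and the interaction from -3.01 to 0.40, -2.92 to 0.49, -4.32 to -0.06 and -2.62 to 0.46. HFD against SFD in KO ran from 0.04 to 1.72 over the 4 genes and KO against WT on HFD from -0.25 (Hbb-bs without KO-HFD-1504) to 0.94. None of the 156 aorta fold changes in other settings moved by more than that SD, including those whose sign turned. The low aortae WT-SFD-1309, WT-SFD-1310 and KO-SFD-1319 widened that SD in every comparison with an SFD group. Staying within it therefore does not show that a difference was stable.

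In the kidney 28 of 480 fold changes turned sign with 1 library left out, and none was called (in parentheses, values of further fits with a turned sign). HFD against SFD in WT ran from -0.178 to 0.454 for Hba-a1, -0.313 to 0.351 for Hba-a2, -0.158 to 0.302 for Hbb-bs and -0.0629 to 0.429 for Hbb-bt, lowest without WT-HFD-1613. KO against WT on HFD ran from -0.0714 to 0.641 for Hba-a1, -0.0444 to 0.674 for Hba-a2 and -0.0468 to 0.562 for Hbb-bt, lowest without KO-HFD-1520. KO against WT on SFD ran from -0.146 to 0.219 for Hba-a1, -0.183 to 0.103 for Hba-a2 (0.0222), -0.223 to 0.125 for Hbb-bs (0.00902), -0.156 to 0.258 for Hbb-bt (-0.033) and -0.786 to 0.0219 for S100a9. The interaction ran from -0.13 to 0.583 for Hba-a1 (-0.0198, -0.0538), -0.099 to 0.51 for Hbb-bt, -0.332 to 0.64 for S100a8 (-0.0418, -0.135, -0.114, -0.199, -0.0625, -0.153) and -0.858 to 0.0439 for S100a9 (0.0354). The cause was not tested. All 171 kidney fold changes in other settings kept their direction. Depth limits the calprotectin genes, at 0 to 9 counts per aorta and 3 to 45 per kidney.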

Other observations

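Adipocyte genes, whose aorta values took part in the choice of the 6 genes, are described without a test: the fitted difference of HFD against SFD was negative for 22 of 22 in WT (median log2 difference -3.67) and for 22 of 22 in KO (median -3.16). WT-SFD-1309 and WT-SFD-1310 carried the WT-SFD level, and the adipocyte sum of WT-SFD-1445 lay among those of the HFD aortae. The remaining lists were tested in the same fits, and edgeR called none of their genes in the aorta. For KO against WT on SFD, 12 of 12 lymphocyte genes had a positive difference (median 2.47, against -0.03 for all genes tested) and 9 an unadjusted p under 0.05 (6.14% of all genes, DESeq2 called 0), where KO-SFD-1319 carried nearly all of their level. Macrophage genes had medians of 0.20, -0.12, 0.64, 0.24 and -0.41 over the 5 comparisons (HFD against SFD in WT and KO, KO against WT on SFD and HFD, interaction), and endothelial genes of -0.18, -0.03, -0.23, -0.22 and 0.06 (0 to 3 unadjusted in either list). DESeq2 called Kdr in HFD against SFD in WT, where it called 666 genes in all. Smooth muscle genes had medians of 0.32, 0.24, 0.08, 0.03 and -0.07 and fibroblast genes of 0.30, 0.11, 0.12, -0.00 and -0.19 (0 to 2 unadjusted, DESeq2 0). Of the skeletal muscle genes 2 were tested (medians -0.73 to 0.33), and of the kidney genes 1, Aqp1 (-0.44 to 0.34), which endothelium also expresses.

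In the kidney edgeR called 5 of these genes, all in HFD against SFD in KO, where 2.3% of all genes were called: 3 of 21 tested adipocyte, 1 of 10 kidney tubule and podocyte and 1 of 2 skeletal muscle genes. Slc12a3, the thiazide-sensitive salt transporter, and Pvalb, parvalbumin, listed here as a skeletal muscle gene, are both expressed in the distal convoluted tubule and rose by 0.71 and 1.57 on the log2 scale (edgeR adjusted p = 0.0127 and 0.00226). The adipocyte hormone Lep rose by 4.97 (edgeR adjusted p = 0.00902) from levels near 0, and all 3 were highest in KO-HFD-1520 (Lep at 17.2 FPM). Aqp7, a glycerol channel, and Lpl, lipoprotein lipase, fell by 0.61 and 1.07 on the log2 scale (edgeR adjusted p = 0.0109 and 0.0434). DESeq2 called these 5 in KO as well as Pck1 (1.45 in edgeR, edgeR adjusted p = 0.0666), Pnpla2, Aqp1 and Umod, which had negative differences (-0.52, -0.38 and -0.59). In WT it called Pvalb and Lpl, which edgeR did not (0.88 and -1.07, edgeR adjusted p = 0.161 and 0.0863). Slc12a3, Pvalb and Lep had interactions of 0.61, 0.69 and 1.96 that edgeR did not call (adjusted p = 1.00 each). The lymphocyte, macrophage, endothelial, smooth muscle and fibroblast genes had none called by edgeR or DESeq2 in any kidney comparison (0 to 5 unadjusted, against 1.65% to 15.8% of all genes). The 5 were macrophage genes, of 13 tested, in HFD against SFD in WT, where 7.9% of all genes had an unadjusted p under 0.05.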
